A study of Mus musculus with 66 samples.

Results

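The cerebellum of *Rorb* h5/h5 mice was compared with that of DBA/1J wild types in 6 bulk RNA libraries, 3 per genotype, out of 66 in the series. The libraries were selected by their tissue and genotype labels, and every gene measured in them was examined. The h5 allele is a spontaneous start-loss mutation that arose on DBA/1J, in which T is replaced by C in the ATG that opens translation from exon 1a of *Rorb*. All 6 mice share the DBA/1J background, the labels name no other allele or treatment, and the mutant mice carry the change in every cell from conception. The labels give 7.0 weeks as the age of each of these 6 mice. By their labels, DBA/1J replicates 1 and 2 and *Rorb* h5/h5 replicates 1 and 3 came from females, and DBA/1J replicate 3 and *Rorb* h5/h5 replicate 2 from males. The question was which transcripts differ in the cerebellum, a region where *Rora* rather than *Rorb* is the abundant family member, and whether the differences recur elsewhere in the nervous system. For the second point the same genes were read in the cortex and hippocampus, whose files carry the identifiers of the same 6 animals. They were also read in brain hemisections and spinal cords, which carry those of 6 other mice of the same 2 genotypes. Those other mice were all older by their labels, with both sexes in each genotype. For the hippocampus the paper mentions slight age differences at collection, which the labels do not show.

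*Rorb* encodes the retinoic acid receptor-related orphan receptor beta (RORβ), a nuclear receptor. Members of its family bind DNA mostly as monomers, at an AGGTCA core that follows a short AT-rich stretch, and activate transcription, whereas the REV-ERB receptors NR1D1 and NR1D2 bind the same elements and repress it. RORα is needed for the survival and maturation of Purkinje cells, the output neurons of the cerebellar cortex, and its loss causes the staggerer ataxia. RORβ is best known from the retina, from cortical layers that receive thalamic input and from inhibitory neurons of the spinal cord that gate sensory feedback in walking. The cerebellum holds far more granule cells than any other neuron. Bergmann glia, the radial astrocytes of its cortex, wrap the Purkinje dendrites, and the choroid plexus of the fourth ventricle, an epithelium that secretes cerebrospinal fluid, lies against its lower face.

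*Rorb* lies on chromosome 19, at chr19:18930609-19111196 of GRCm38, and is transcribed from alternative first exons. Sequence around both start codons is shown because it marks what the allele removes. The 30 bases around each, from GENCODE transcripts, read 5′ to 3′ with the start codon in capitals.

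*Rorb1*, exon 1a, the start codon that is lost in h5: agcggccacatcATGcgagcacaaattgaa

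*Rorb2*, exon 1b, whose start codon lies in another exon: tgctccgtcagaATGtgtgagaaccagccc

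The exon 1a transcript encodes 459 codons, and its next in-frame ATG is codon 75. The exon 1b transcript encodes 470 codons, and its next in-frame ATG is codon 86. Gene-level counts do not separate these transcripts, nor do they read the base at the start codon, so the level of *Rorb* is no check of the genotype labels.

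*Fabp7* and *Etnppl* were the genes that passed the adjusted threshold in cerebellum, and a RefSeq window of 300 bases (GRCm38.p6), from 250 before to 50 after a start site, is given for each. Capitals mark the reverse complement, TGACCT, of the AGGTCA core, which both windows hold on the reverse strand. In *Fabp7* the match begins 165 bases before the start site and is preceded on its own strand by T, the complement of the a that follows the capitals. In *Etnppl* it lies past the start site.

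*Fabp7*, chr10:57784673-57784972, plus strand: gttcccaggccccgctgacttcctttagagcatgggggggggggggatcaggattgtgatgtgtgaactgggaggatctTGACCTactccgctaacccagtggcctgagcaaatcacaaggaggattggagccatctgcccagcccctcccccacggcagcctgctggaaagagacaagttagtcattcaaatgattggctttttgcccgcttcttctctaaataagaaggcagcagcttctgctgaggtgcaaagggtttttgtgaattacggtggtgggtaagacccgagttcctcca

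*Etnppl*, second start site, chr3:130617325-130617624, plus strand: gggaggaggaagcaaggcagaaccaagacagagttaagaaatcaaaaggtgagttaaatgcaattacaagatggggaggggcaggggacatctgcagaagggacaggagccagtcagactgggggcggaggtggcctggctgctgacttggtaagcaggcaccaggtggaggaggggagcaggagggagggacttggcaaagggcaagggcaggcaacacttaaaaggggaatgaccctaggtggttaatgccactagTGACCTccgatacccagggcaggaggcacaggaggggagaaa

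Searched on both strands, the core occurred in 16.3% of all 32851 promoter windows, and TAGGTCA, which contains it, in 2.61%. Of the 30 genes with the smallest p described below, 22 had a window, and 10 of their 38 windows held the core. The longer motif occurred in the windows of *Fabp7* and *Aass*. The first *Etnppl* window and both windows of *Rorb* held neither. A match is a description of the letters and says nothing of binding.

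Between 34419633 and 43477472 estimated counts were assigned to genes per library, so a gene at 10 counts per 1e+06 (CPM) rests on over 300 counts. The tissue label fitted its markers, given here in TPM, a level per gene length. *Gabra6*, a GABA receptor subunit of granule cells, lay at 703 to 766 TPM in DBA/1J and 656 to 838 TPM in *Rorb* h5/h5, and *Pcp2*, a Purkinje cell gene, at 1248 to 1396 and 1303 to 1461 TPM. *Rorb* h5/h5 replicate 3 stood apart. It is labelled female, yet *Xist*, the RNA of the inactive X chromosome, was at 0.32 CPM and the Y-linked *Ddx3y* at 86.3 CPM, against 1487 to 1705 and 0 CPM in the other libraries labelled female. The cortex and hippocampus of the same animal went against that label too, with *Xist* at 0 and 0.282 CPM and *Ddx3y* at 58.2 and 69.4 CPM, so that 3 of the 18 libraries in the tests between regions are affected. It also lay at -33.9 on the first principal component, which held 45.5% of the variance, with the other 5 libraries between -4.39 and 19.1, and it held almost no choroid plexus RNA (below). Values without it follow the results that leaving it out moved most. In addition, 1 of the 3 DBA/1J hemisections lacked cerebellar RNA, with *Gabra6* at 0.16 TPM against 85.8 and 92.2 TPM in the other two.

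The *Rorb* transcript was present in cerebellum and more abundant in the mutants. It measured 16.6, 16 and 17.7 CPM in DBA/1J replicates 1, 2 and 3 and 24.7, 24.7 and 24.5 CPM in *Rorb* h5/h5. Every mutant library lay above every wild type, and the mutant values differed from each other by less than those of the wild types. The group means were 16.8 ± 0.827 and 24.7 ± 0.119 CPM (SD, n = 3), a log2 fold change of 0.56 (SE 0.07), or 1.47-fold. The edgeR adjusted p was 0.0806 and missed the threshold of 0.05, whereas DESeq2, the tool of the study, gave an adjusted p of 3.91e-06. An exact two-sided permutation test of the 6 CPM values gave p = 0.1, the smallest that 3 against 3 can give. Per length the level was low, 3.93 TPM in DBA/1J and 5.77 TPM in *Rorb* h5/h5.

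*Rora* showed no such separation. It read 658, 584 and 687 CPM in DBA/1J and 614, 630 and 646 CPM in the mutants, overlapping groups with a log2 fold change of -0.03 (SE 0.07, edgeR adjusted p 0.979). Per length *Rora* was far more abundant than *Rorb*, at 154 TPM in DBA/1J and 152 TPM in *Rorb* h5/h5. The REV-ERB genes *Nr1d1* and *Nr1d2* had log2 fold changes of -0.11 and -0.09, with overlapping groups. Of the 5 other genes tested within 0.5 Mb of *Rorb*, namely *Ostf1*, *Carnmt1*, *Trpm6*, *Nmrk1* and *D030056L22Rik*, the unadjusted p ran from 0.649 to 0.994.

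Across the whole transcriptome few genes passed the adjusted threshold. Of 16669 genes tested with edgeR, 2 passed an adjusted p of 0.05 (0.0120%), *Etnppl* lower and *Fabp7* higher. At an unadjusted p under 0.05 there were 937 genes (5.62%), with 397 higher (2.38%) and 540 lower (3.24%). DESeq2 called 44 of 16983 genes (0.259%), 10 higher (0.0589%) and 34 lower (0.200%), and all 44 were tested by edgeR too. Of the 34 lower genes, 25 were lowest in *Rorb* h5/h5 replicate 3. The median log2 fold change of all genes was 0.00. Without *Rorb* h5/h5 replicate 3 edgeR called 8 genes (0.0470%), namely *Etnppl*, *Fabp7*, *Heph*, *Hba-a1*, *Hbb-bs*, *Sostdc1*, *Mfrp* and *Cldn1*, and at an unadjusted p under 0.05 3.31% of genes were then higher and 4.04% lower.

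**Figure D1:**
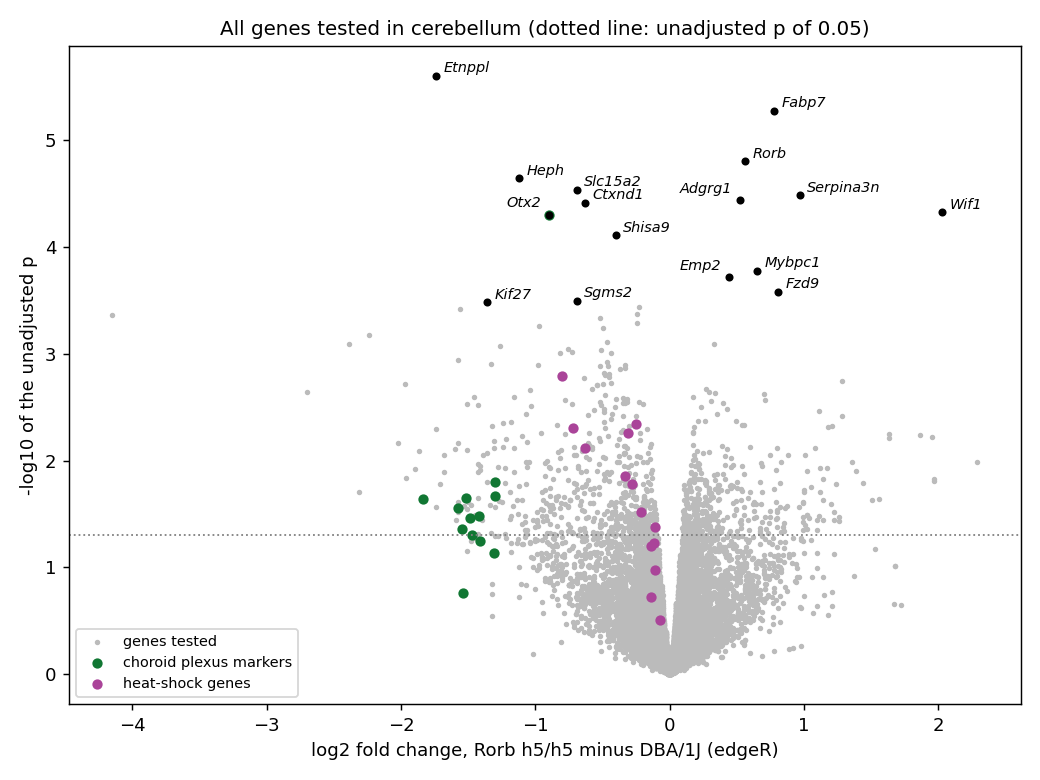
Each point is a gene tested in cerebellum, placed by its edgeR log2 fold change (x axis, *Rorb* h5/h5 minus DBA/1J) and the -log10 of its unadjusted p (y axis); green marks choroid plexus markers, purple heat-shock genes, and the named points are the 8 genes of smallest p in each direction. *Etnppl*, at -1.74, and *Fabp7*, at 0.78, sit highest.

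*Etnppl* encodes ethanolamine-phosphate phospho-lyase, an enzyme of phospholipid breakdown that astrocytes express. It read 11.9, 10.9 and 15.9 CPM in DBA/1J replicates 1 to 3 and 3.27, 3.52 and 4.83 CPM in *Rorb* h5/h5. The lowest wild type lay above the highest mutant by more than the spread within either group. *Etnppl* fell by 1.74 on the log2 scale (SE 0.18, edgeR adjusted p 0.0416, DESeq2 adjusted p 1.98e-17), from 12.9 ± 2.66 to 3.87 ± 0.835 CPM (SD, n = 3), and the value was -1.92 without *Rorb* h5/h5 replicate 3. *Fabp7*, the brain lipid-binding protein of radial glia, Bergmann glia and astrocytes, read 36, 36.1 and 40.7 CPM in DBA/1J and 59.6, 73.3 and 60.3 CPM in the mutants. All mutant libraries were higher. *Fabp7* rose by 0.78 (SE 0.09, edgeR adjusted p 0.0441, DESeq2 adjusted p 6.77e-14), from 37.6 ± 2.67 to 64.4 ± 7.71 CPM (SD, n = 3), or 1.71-fold. Leaving out one library at a time left the direction of both genes as it was, but the edgeR adjusted p ran from 0.00474 to 0.221 for *Etnppl* and from 0.015 to 0.432 for *Fabp7*. Both calls were lost without DBA/1J replicate 1, 2 or 3 or without *Rorb* h5/h5 replicate 1, and that of *Etnppl* also without *Rorb* h5/h5 replicate 2. The first part of the animal identifier is shared by DBA/1J replicate 2 and *Rorb* h5/h5 replicate 3, and by DBA/1J replicate 3 and *Rorb* h5/h5 replicate 1, and the labels do not say what it marks. DBA/1J replicate 1 and *Rorb* h5/h5 replicate 2 are each alone in their series and add nothing to a comparison within series. With the identifier series as a block, a fit that thus rests on fewer libraries, the values were -1.72 and 0.65, and both calls were lost (edgeR adjusted p 0.441 for each). They were also lost in one fit of 3 regions (0.551 and 0.258), that of *Etnppl* with labelled sex (0.0593), and that of *Fabp7* with sex read from the RNA (0.0565) and at a minimum of 1 CPM in 3 libraries (0.0568). In bulk tissue fewer cells of a type and less RNA per cell cannot be told apart.

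Among the 30 genes of smallest edgeR p, 15 in each direction, several others are known from astrocytes. *Serpina3n*, a secreted protease inhibitor of reactive astrocytes, read 2.42, 2.62 and 2.34 CPM in DBA/1J and 4.54, 5.27 and 4.68 CPM in *Rorb* h5/h5, with no overlap (log2 fold change 0.97, SE 0.14, edgeR adjusted p 0.0806, DESeq2 adjusted p 0.00096). *Adgrg1*, an adhesion receptor of progenitors and glia also called GPR56, read 34.8, 34.3 and 29.5 against 47.2, 47.9 and 46.7 CPM, again with all mutants higher (0.52, SE 0.07, edgeR adjusted p 0.0806, DESeq2 adjusted p 1.31e-06). *Gfap*, the intermediate filament of astrocytes, read 71.6, 82.1 and 69.4 against 102, 96.8 and 83.3 CPM. The lowest mutant, replicate 3, lay just above the highest wild type (0.34, SE 0.08, edgeR adjusted p 0.596, DESeq2 adjusted p 0.0345). *Slc6a11*, the astrocyte GABA transporter GAT-3, had a log2 fold change of 0.33 (SE 0.07, DESeq2 adjusted p 0.0127), and the extracellular matrix protein *Tnc*, tenascin-C, one of 0.27 (SE 0.07, DESeq2 adjusted p 0.113).

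In the lower direction *Slc15a2*, the peptide transporter PEPT2 of astrocytes and choroid plexus, read 16.8, 16.8 and 16.4 CPM in DBA/1J and 9.43, 11.5 and 9.85 CPM in *Rorb* h5/h5. The wild types were almost equal and all above the mutants (-0.69, SE 0.10, edgeR adjusted p 0.0806, DESeq2 adjusted p 5.41e-06). *Heph*, the copper-dependent ferroxidase hephaestin that works with the iron exporter ferroportin, read 8.13, 7.32 and 7.34 against 2.74, 3.82 and 3.95 CPM. Its mutant mean was below that of the wild types by 2.17-fold, with no overlap (-1.12, SE 0.15, edgeR adjusted p 0.0806, DESeq2 adjusted p 1.66e-06). *Ctxnd1* read 11.4, 10.9 and 11.6 against 7.23, 7.34 and 7.35 CPM (-0.63, SE 0.09, edgeR adjusted p 0.0806, DESeq2 adjusted p 0.000888). Removing *Rorb* h5/h5 replicate 3 moved *Serpina3n*, *Adgrg1*, *Slc15a2*, *Heph* and *Ctxnd1* to 1.00, 0.53, -0.66, -1.21 and -0.63, and *Heph* then passed the threshold (edgeR adjusted p 0.0417).

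Other members of the 30 have roles outside astrocytes. *Wif1*, a secreted inhibitor of Wnt ligands, was scarce and read 0.597, 0.321 and 0.426 CPM in DBA/1J against 1.43, 1.88 and 2.15 CPM in the mutants, with no overlap (2.03, SE 0.30, edgeR adjusted p 0.0828, DESeq2 adjusted p 0.000288). *Fzd9*, a Wnt receptor, read 2.56, 2.43 and 3.03 against 4.94, 4.23 and 4.85 CPM (0.81, SE 0.15, DESeq2 adjusted p 0.027). *Emp2*, a tetraspan membrane protein, read 24, 23.7 and 22.9 against 29.1, 34 and 32.7 CPM (0.44, SE 0.08, DESeq2 adjusted p 0.000929). All mutants were higher for each of these genes. *Mybpc1*, a myosin-binding protein, differed by 0.65 (SE 0.11, DESeq2 adjusted p 0.000713). *Tubb2b*, a tubulin of young neurons and glia, differed by 0.29 and *Dab1*, the adaptor of reelin signalling, by 0.17. *Prnd*, which encodes the prion-like protein doppel, stayed under 1 CPM in every library.

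Among the lower genes, *Shisa9*, an auxiliary subunit of AMPA receptors, read 42.2, 43.6 and 42.9 CPM in DBA/1J and 33.5, 30.9 and 33 CPM in *Rorb* h5/h5. Neither group spanned more than a few CPM and they did not overlap (-0.40, SE 0.06, edgeR adjusted p 0.118, DESeq2 adjusted p 0.000314). *Sgms2* (sphingomyelin synthase), *Kif27* (a kinesin of motile cilia), *Prdx6* (a peroxiredoxin), *Ltc4s* (leukotriene C4 synthase), *Slc12a2* (the sodium, potassium and chloride cotransporter NKCC1), *Aass* (lysine breakdown) and *Ahcyl2* differed by -0.69, -1.36, -0.23, -1.56, -0.24, -0.52 and -0.24. Each had an edgeR adjusted p of at least 0.342. *Sgms2* and *Kif27* were lowest in mutant replicate 3, at 5.67 and 0.581 CPM, and were at -0.42 and -0.89 with the choroid plexus covariate described below. *Ugt1a6b*, a glucuronosyltransferase, read 0.455, 0.39 and 0.308 CPM in DBA/1J and 0, 0.0546 and 0 CPM in the mutants. It shares most of its sequence with other *Ugt1a* transcripts, so its share of reads is uncertain and no fold is given.

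**Figure D2:**
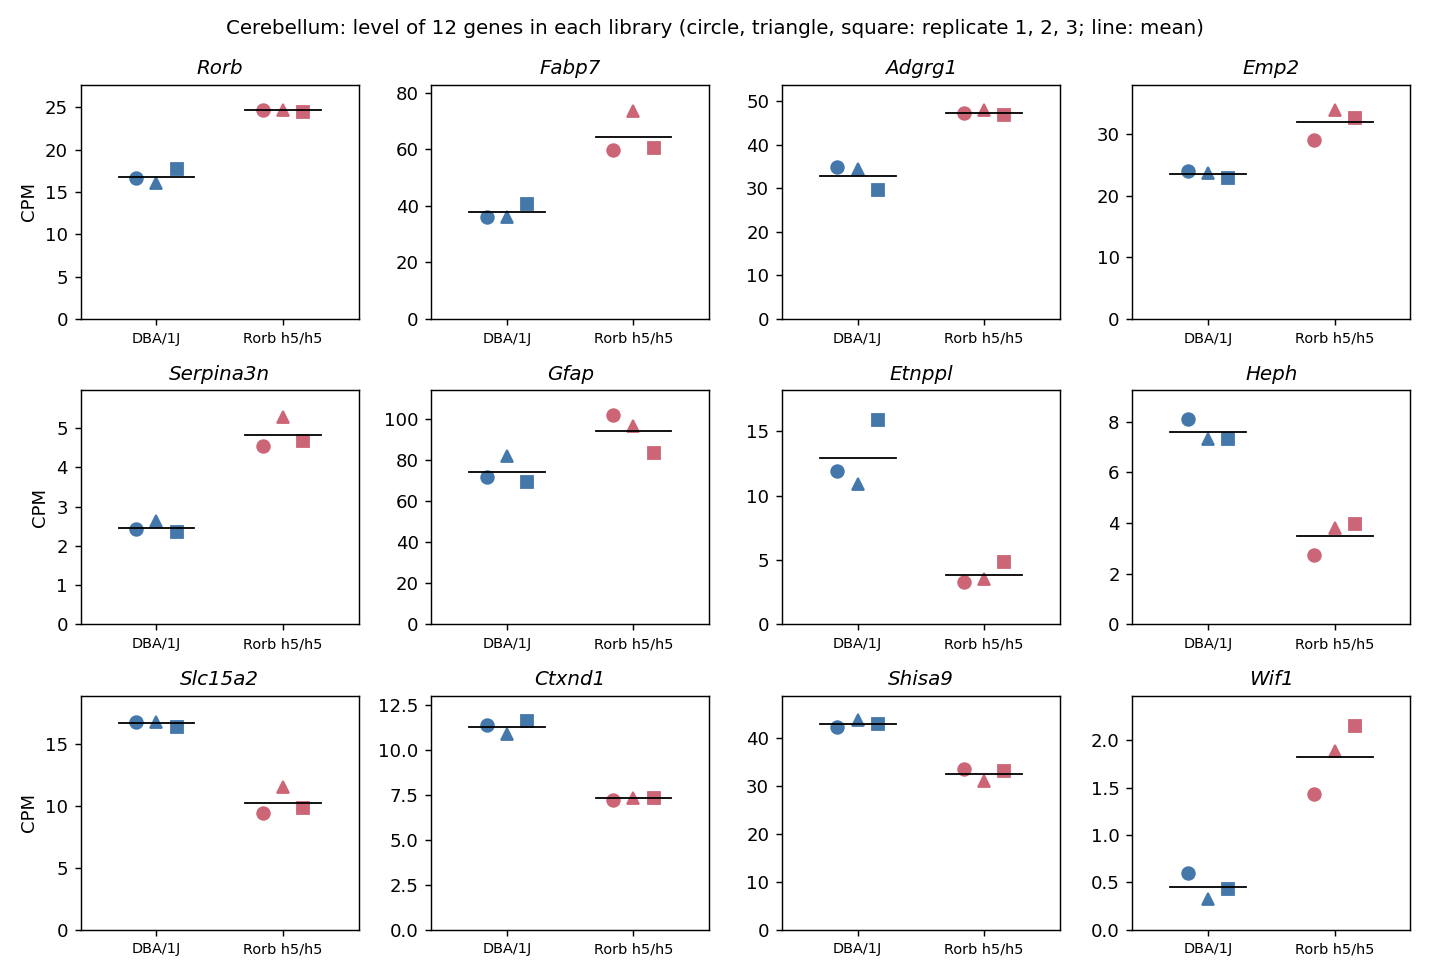
Level in CPM (y axes, from 0) of 12 genes in the 3 DBA/1J and 3 *Rorb* h5/h5 cerebellum libraries, with symbols for replicates 1, 2 and 3 and a line at the mean. The groups did not overlap for any gene shown; *Rorb* mutants sat at 24.5 to 24.7 CPM and *Heph* mutants at 2.74 to 3.95 CPM.

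The same 30 genes were read in tissue from other mice. In hemisections 28 of them were tested, and 13 (46.4%) differed in the cerebellar direction at an unadjusted p under 0.05, against 3.11% of all genes tested in both. In either direction 5.80% of genes had such a p in hemisections. In spinal cord this held for 11 of 27 (40.7%), against 4.36% of all genes. Irrespective of p, 20 of 28 and 24 of 27 had the cerebellar direction, against 51.3% and 48.3% of all genes. No gene of the 30 passed the adjusted threshold there. Of the higher genes 13 of 14 and 14 of 14 had that direction. Of the lower ones it was 7 of 14 in hemisections, or 50%, close to the share of all genes, and 10 of 13 in spinal cord. Without the hemisection that lacked cerebellar RNA, 24 of 29 had the cerebellar direction, against 50.4% of all genes, and 13 still had a p under 0.05. Hemisections and spinal cords came from the same 6 mice and are not independent of each other.

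A set of 8 genes differed in the cerebellar direction at an unadjusted p under 0.05 in both tissues of the other mice: *Fabp7*, *Rorb*, *Adgrg1*, *Emp2*, *Tubb2b*, *Etnppl*, *Heph* and *Slc15a2*. *Fabp7* had log2 fold changes of 0.87 in cortex, 1.33 in hippocampus, 0.76 in hemisections and 0.76 in spinal cord. *Emp2* was the most even, at 0.43, 0.46, 0.46 and 0.47 against 0.44 in cerebellum. *Heph* was at -1.54, -1.10, -1.04 and -0.50. *Slc15a2* was at -0.66, -0.40, -0.56 and -0.25, and *Adgrg1* at 0.35, 0.56, 0.30 and 0.22. *Rorb* itself was at 0.72, 0.47, 0.40 and 0.24. *Etnppl* was at -0.93, -0.03, -0.41 and -0.58, smaller in size than the -1.74 of cerebellum, but the difference between regions did not pass the test (-0.89, SE 0.62, edgeR adjusted p 0.756 against cortex and -1.53, SE 0.66, adjusted p 1 against hippocampus).

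Over all 15870 genes tested in cerebellum, hemisection and spinal cord, 870 had an unadjusted p under 0.05 in cerebellum, and 33 of these (3.79%) differed in the same direction at that p in both other tissues, against 107 (0.674%) of all genes. Beyond the 8 above, the 33 hold genes named here after their values were seen. *Ednrb*, the endothelin receptor of astrocytes, was at 0.29 in cerebellum, 0.35 in hemisections and 0.28 in spinal cord, and *Ntsr2*, an astrocytic neurotensin receptor, at -0.35, -0.37 and -0.17. *Hsd11b1*, which regenerates active glucocorticoid, was at 0.31, 0.68 and 0.43, and *Myoc*, myocilin, at 1.02, 1.29 and 1.72. *Ppp1r3g*, a glycogen-targeting phosphatase subunit of astrocytes, was at -1.06, -1.33 and -0.95, and the clock factor *Npas2* at -0.53, -0.27 and -0.27. Chaperone genes were also there, *Hspb1* at -0.80, -0.77 and -0.50 and *Hsph1* at -0.28, -0.27 and -0.24.

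**Figure D3:**
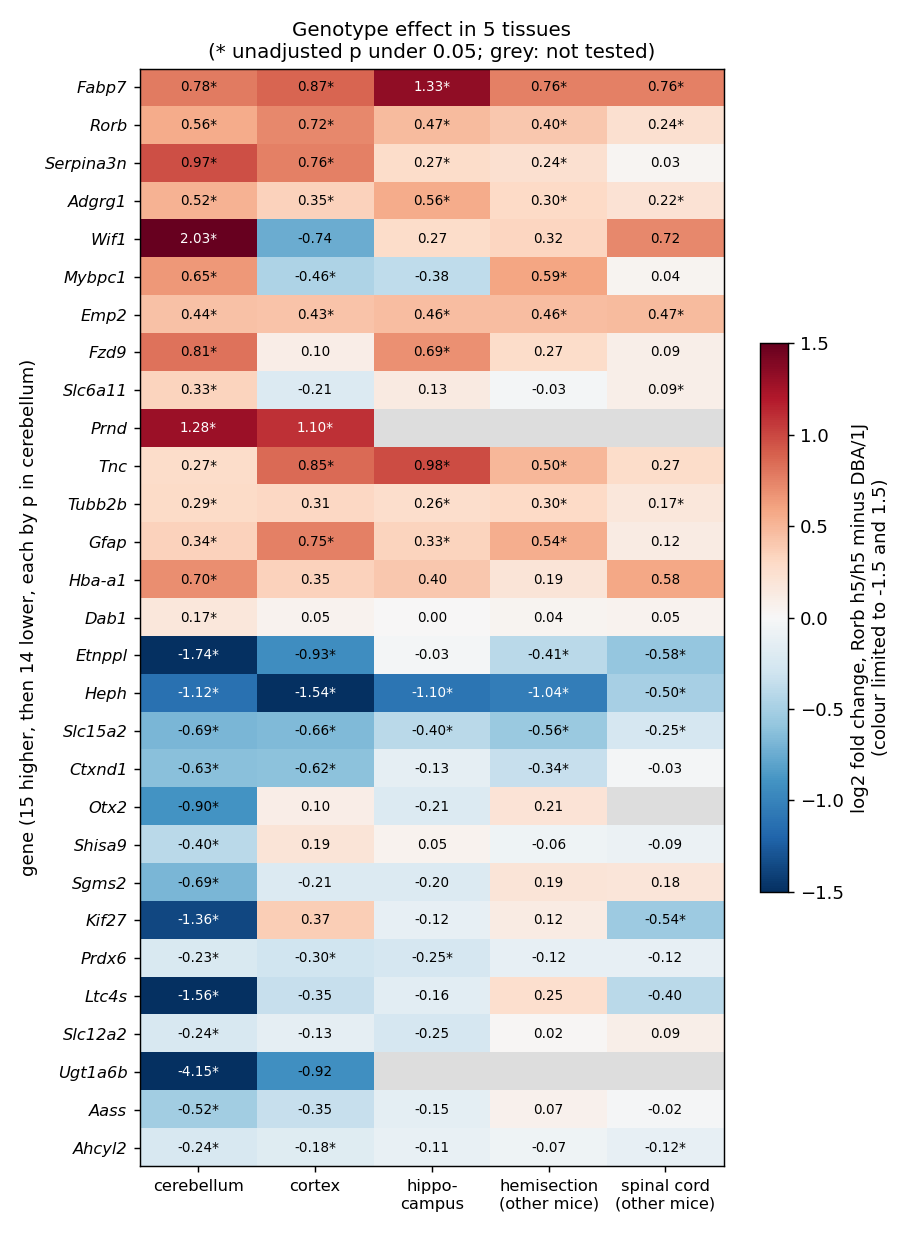
Colour and number give the edgeR log2 fold change (*Rorb* h5/h5 minus DBA/1J) of the genes of smallest p in cerebellum (y axis, 15 higher, then 14 lower) in 5 tissues (x axis); a star marks an unadjusted p under 0.05 and grey a gene not tested. *Fabp7*, *Rorb*, *Adgrg1*, *Emp2*, *Heph* and *Slc15a2* carry a star in every tissue.

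*Grin2c* was the gene whose genotype effect differed between regions. It encodes GluN2C, the NMDA receptor subunit that marks mature cerebellar granule cells and that astrocytes of other regions express. In cerebellum it read 274, 275 and 233 CPM in DBA/1J and 289, 306 and 262 CPM in *Rorb* h5/h5, overlapping groups (0.13, SE 0.08, edgeR adjusted p 0.921). In cortex it read 38.4, 35.2 and 33.6 CPM in DBA/1J and 18, 16.7 and 20.7 CPM in the mutants, with no overlap (-0.95, SE 0.10, adjusted p 0.0688), in a tissue where 6.42% of all genes tested had an unadjusted p under 0.05. The log2 fold change was -0.93 in hippocampus (adjusted p 0.045) and -0.79 in spinal cord (adjusted p 0.0376), so that *Grin2c* fell in both, where 0.0118% and 0.00581% of all genes passed that threshold and 4.22% and 8.90% had an unadjusted p under 0.05. It was 0.18 in hemisections, or -0.11 without the hemisection that lacked cerebellar RNA. Tested as an interaction with the animal as a block, the cerebellar effect exceeded that of cortex by 1.09 (SE 0.12, edgeR adjusted p 0.00574) and that of hippocampus by 1.07 (SE 0.12, adjusted p 0.00802). It was the one gene of 18366 (0.00544%) called in each difference, where 1413 (7.69%) and 703 (3.83%) had an unadjusted p under 0.05. The call against cortex was lost without the animal of DBA/1J replicate 1 (adjusted p 0.153) or 2 (0.071) or of *Rorb* h5/h5 replicate 1 (0.107), and that against hippocampus without any one DBA/1J animal or *Rorb* h5/h5 replicate 1 (0.0528 to 0.0904).

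For some genes the log2 fold change in cortex had the opposite sign, and the difference between regions passed DESeq2's threshold but not edgeR's. *Mybpc1* was at -0.46 in cortex (difference 1.10, SE 0.18, edgeR adjusted p 0.08, DESeq2 adjusted p 0.00164). *Wif1* was at -0.74 in cortex (difference 2.85, SE 0.52, edgeR adjusted p 0.106, DESeq2 adjusted p 0.00479). *Shisa9* was at 0.19 in cortex (difference -0.60, SE 0.12, edgeR adjusted p 0.166, DESeq2 adjusted p 0.00636). Of the 30 genes, 6 had the cerebellar direction in neither tissue of the other mice, among them *Prnd* and *Ugt1a6b*, which were not tested there, and *Otx2*, *Sgms2* and *Slc12a2*.

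**Figure D4:**
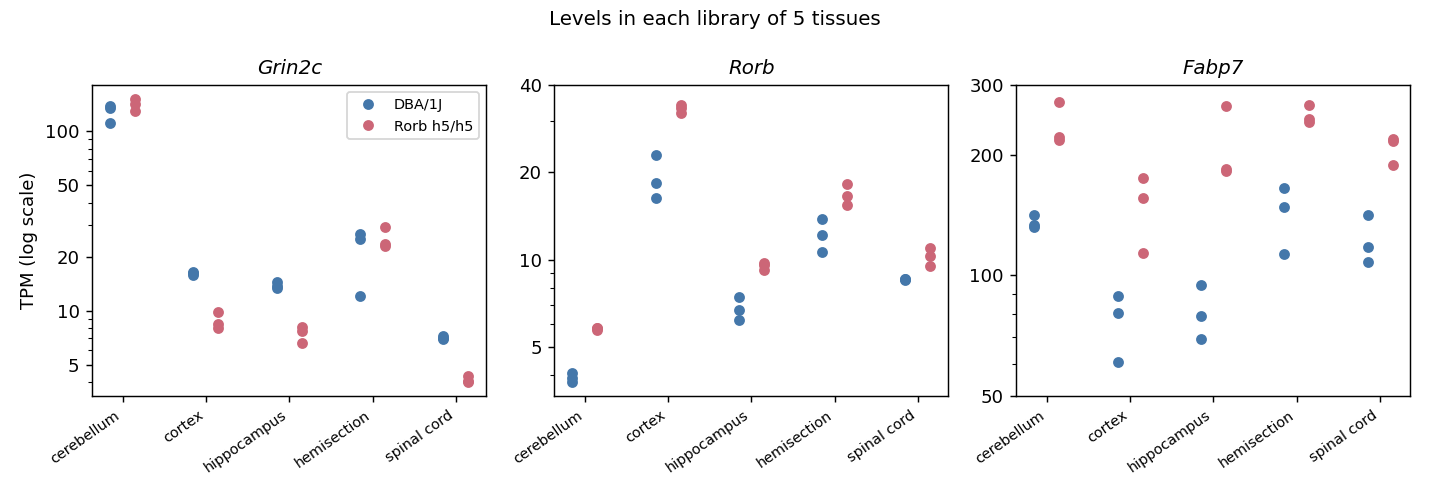
TPM (y axes, log scale) of *Grin2c*, *Rorb* and *Fabp7* in every library of 5 tissues (x axes), 3 per genotype. *Grin2c* overlaps between genotypes in cerebellum and is lower in every mutant library of cortex, hippocampus and spinal cord, whereas *Fabp7* is higher in every mutant library of all 5 tissues.

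Neuronal markers differed little between the genotypes. None of the 15 granule cell markers had an unadjusted p under 0.05, their median log2 fold change was 0.02 and their summed level ran from 9331 to 9486 CPM in DBA/1J and from 9245 to 9939 CPM in *Rorb* h5/h5. None of the 24 Purkinje cell markers did either (median 0.05), and 21 of them lay above 0. *Calb1*, the calcium buffer of Purkinje cells, read 850, 823 and 967 against 872, 971 and 885 CPM. Of 15 inhibitory interneuron markers 1 had a p under 0.05, the glycine transporter gene *Slc6a5*, at 0.18, against 2.38% of all genes higher and 3.24% lower. Of 3 unipolar brush cell markers none did, but *Eomes*, the transcription factor that defines those cells, varied widely, with 50.1, 63.4 and 66.6 CPM in DBA/1J and 31.6, 19.4 and 73.8 CPM in the mutants. *Rorb* h5/h5 replicate 3 was the highest library and the other mutants the lowest (-0.53, SE 0.37, edgeR adjusted p 0.93). *Eomes* was at -0.19 without mutant replicate 2, and at -1.23 with edgeR adjusted p 0.0678 without mutant replicate 3. Without that library 2 granule cell and 1 Purkinje cell marker were higher at an unadjusted p under 0.05 (all genes 3.31%).

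The lists of glial markers had medians between -0.22 and 0.11. Of 15 Bergmann glia and astrocyte markers tested, 3 were higher at an unadjusted p under 0.05 (*Fabp7*, *Gfap* and *Septin4*) and none lower, against 2.38% and 3.24% of all genes, and the median was -0.01. These shares apply to the other glial lists as well. *Slc1a3*, the glutamate transporter GLAST of Bergmann glia, read 1312, 1319 and 1386 against 1408, 1398 and 1452 CPM (0.08, SE 0.05), and *Aqp4*, the water channel of astrocyte endfeet, had a log2 fold change of 0.07. Of 14 oligodendrocyte markers 2 were higher at that p, among them *Ugt8a* (0.15), with 13 of 14 above 0 and a median of 0.11. Without mutant replicate 3 *Septin4* and *Ugt8a* kept log2 fold changes of 0.13 and 0.15, with unadjusted p of 0.0503 and 0.0737, and *Ugt8a* was at 0.09 (p 0.158) without DBA/1J replicate 3. No member of the lists for oligodendrocyte precursors (6), microglia (12) or pericytes and smooth muscle (8) had a p under 0.05. Among 12 endothelial markers *Cldn5* was at 0.31 and *Flt1* at -0.11. In lists drawn up after values had been seen, 2 of 12 reactive astrocyte genes were higher (*Serpina3n* and *Gfap*) and 2 lower (*Cd44* and *Aspg*), against 2.38% and 3.24% of all genes. Of those 12, 8 lay below 0, and their median was -0.22, or -0.15 without mutant replicate 3. In the other such list 4 of 18 further astrocyte genes were higher and 3 lower, among the latter *Glul*, glutamine synthetase, at -0.32, or -0.52 with the plexus covariate.

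Choroid plexus markers were lower in every mutant library than in any wild type. All 13 lay lower in *Rorb* h5/h5, with no overlap between the groups in any of them, and 9 had an unadjusted p under 0.05, against 3.24% of all genes in that direction. Of all genes tested, 5.90% were lower and 5.32% higher without overlap. None of the 13 passed the adjusted threshold, though *Sostdc1* did without *Rorb* h5/h5 replicate 3 (-1.26, edgeR adjusted p 0.015). Their summed level was 3429, 3505 and 2600 CPM in DBA/1J replicates 1 to 3 and 1375, 1995 and 181 CPM in *Rorb* h5/h5. *Ttr*, the thyroid hormone carrier transthyretin, read 1616, 1681 and 1220 CPM against 618, 932 and 4.42 CPM. The third mutant library thus held close to none of it. The median log2 fold change of the list was -1.47, and -0.90 without that library, when all 13 had a p under 0.05 (all genes 4.04% lower). *Otx2*, a homeobox gene of the plexus, read 17.5, 17.5 and 15.5 against 8.4, 11 and 7.59 CPM (-0.90, SE 0.13, edgeR adjusted p 0.0828, DESeq2 adjusted p 3.52e-07) and was the one list member that DESeq2 called. In hemisections of the other mice *Ttr* read 377, 650 and 810 TPM in DBA/1J and 435, 869 and 1101 TPM in *Rorb* h5/h5, so it was not lower there. In hippocampus of the same animals it ran from 1430 to 5989 TPM in DBA/1J and from 212 to 4880 TPM in the mutants. The labels do not record how much plexus each cerebellum sample held, so that the amount of this tissue and its RNA level per cell cannot be told apart.

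The plexus sum was entered as a covariate, an alternative chosen after seeing the data. It did not overlap between the genotypes, and mutant replicate 3, at 181 CPM, lay far below the rest. The fit therefore cannot fully separate the sum from genotype and leans on that library. Values with the covariate, here and elsewhere, carry this limit. Of the 44 genes called by DESeq2, 38 then kept an unadjusted edgeR p under 0.05, while 11 kept less than 50% of their log2 fold change, *Adh1*, *Inmt* and *Acoxl* among them. *Etnppl*, *Fabp7*, *Rorb*, *Heph*, *Slc15a2*, *Serpina3n* and *Adgrg1* were at -2.10, 0.87, 0.56, -1.24, -0.62, 1.04 and 0.56 with the covariate, and 5 genes (0.0300%) passed the threshold. These were *Etnppl* (edgeR adjusted p 0.00616), *Fabp7* (0.0285), *Eomes* (-1.74, 0.00616), *Hba-a1* (1.10, 0.00662) and *Hbb-bs* (1.12, 0.00885). At an unadjusted p under 0.05, 4.36% of all genes were then higher and 4.80% lower. A list of multiciliated ependymal cells, with 15 genes tested, was added after values were seen. Of these genes, 6 were lower at an unadjusted p under 0.05 (median -0.41, all genes 3.24%). There were 5 without mutant replicate 3 (median -0.25, all genes 4.04%) and 2 with the covariate (median -0.08, all genes 4.80%). *Gmnc*, a regulator of multiciliated cells, read 3.81, 3.74 and 3.43 against 1.41, 1.8 and 0.436 CPM, lowest again in mutant replicate 3. Of 13 meningeal markers 2 were higher (*Col1a1* and *Col1a2*) and 3 lower (*Lum*, *Igf2* and *Ptgds*) without the covariate, against 2.38% and 3.24% of all genes. Their sum ran from 705 to 786 CPM in DBA/1J and from 633 to 658 CPM in the mutants.

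Blood also differed between libraries. Globin and erythroid genes summed to 189, 156 and 170 CPM in DBA/1J and 349, 302 and 189 CPM in *Rorb* h5/h5, and 5 of 6 were higher at an unadjusted p under 0.05 (all genes 2.38%), with a median of 0.75, or 0.99 without mutant replicate 3. *Hba-a1* and *Hbb-bs*, chains of adult haemoglobin, were at 0.70 and 0.71 (edgeR adjusted p 0.596 for both). Without mutant replicate 3 they rose by 0.91 and 0.93 and passed the threshold (edgeR adjusted p 0.00427 and 0.00474), as they did with the plexus covariate. Reads of the near-identical globin copies cannot be assigned to one gene with certainty. Anterior pituitary hormone genes, a list added after values were seen, summed to 28.8, 2.16 and 1.35 CPM in DBA/1J and 48.2, 9.72 and 0.785 CPM in the mutants, highest in replicate 1 of both groups. Of brainstem and spinal genes 3 of 18 were tested, and *Slc6a2*, the noradrenaline transporter, read 0.597, 0.39 and 0.0237 against 3.11, 0.846 and 0.872 CPM (2.29, SE 0.73, unadjusted p 0.0104), or 1.38 (p 0.0884) without mutant replicate 1. Their part in the results above was not tested.

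**Figure D5:**
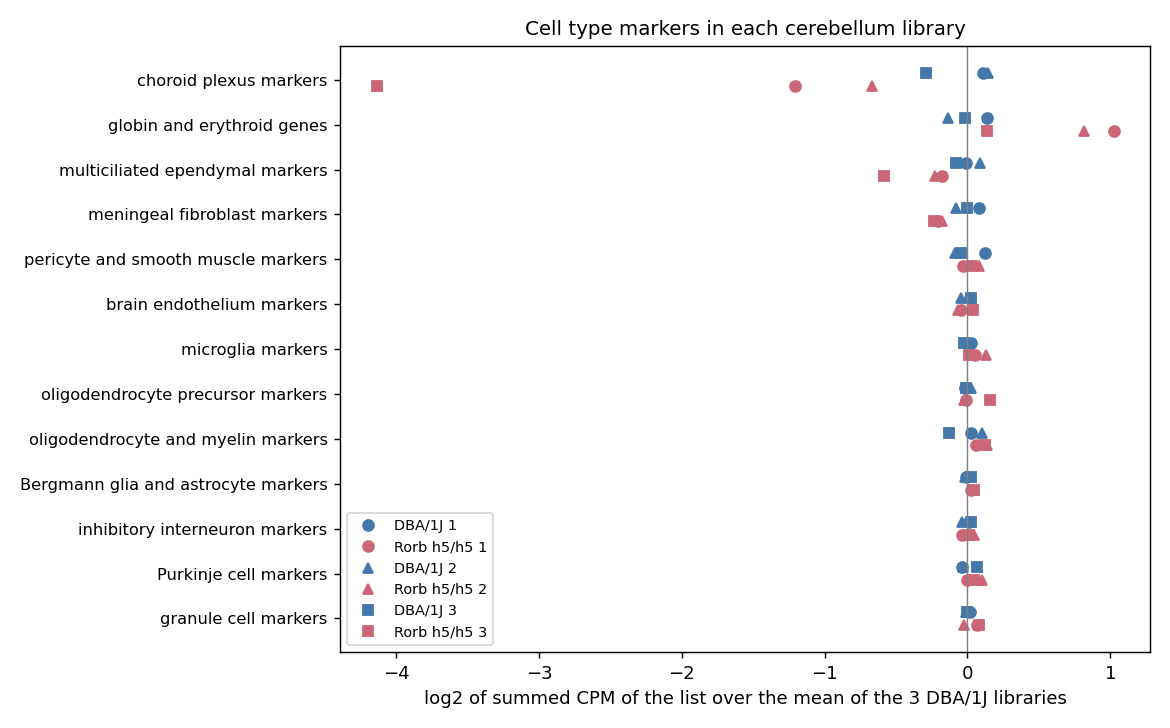
For each marker list (y axis), the log2 of its summed CPM over the mean of the 3 DBA/1J libraries (x axis), with symbols for replicates 1, 2 and 3 of each genotype. Granule, Purkinje and glial sums lie near 0 in all libraries, and the choroid plexus sum of *Rorb* h5/h5 replicate 3, at 181 CPM, lies far to the left.

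Heat-shock genes, the cytosolic and mitochondrial chaperones, lay lower as a group. All 14 lay below 0, 9 had an unadjusted p under 0.05 in the lower direction (all genes 3.24%), and the median was -0.23, or -0.24 without mutant replicate 3. None passed the adjusted threshold. *Hspb1* read 3.89, 5.81 and 4.81 CPM in DBA/1J and 2.71, 3.3 and 2.33 CPM in the mutants (-0.80, SE 0.19, unadjusted p 0.00162). *Dnajb1*, a cochaperone, read 36.7, 46.1 and 41.8 against 35.1, 33.6 and 32.1 CPM, also without overlap (-0.31, SE 0.09). The inducible *Hspa1a* and *Hspa1b*, near-identical copies, were at -0.72 and -0.63 with overlapping groups, and *Hspa1b* was at -0.41 without DBA/1J replicate 2. Among 29 folding genes of the endoplasmic reticulum 26 lay below 0 and 4 had a p under 0.05, *Pdia3*, *Pdia4*, *Dnajc3* and *Derl2* (median -0.15, all genes 3.24% lower), and 10 did without mutant replicate 3 (all genes 4.04%) and 14 with the plexus covariate (median -0.29, all genes 4.80%). Without DBA/1J replicate 3, *Pdia3*, *Dnajc3* and *Derl2* were at -0.13, -0.09 and -0.12, with p of at least 0.134. None of 19 genes of the PERK and ATF4 branch did.

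Genes that glucocorticoids induce and genes that neuronal activity induces lay on opposite sides of 0. Of the 12 former, 11 lay below 0 and 3 had an unadjusted p under 0.05, namely *Fkbp5* (-0.49), *Mt1* (-0.26) and *Plin4* (-0.69), against 3.24% of all genes. The median was -0.25, and without mutant replicate 3 it was -0.45, with 9 at that p in the lower direction against 4.04% of all genes. With the plexus covariate it was -0.68, also with 9 lower (all genes 4.80%), and *Fkbp5*, *Mt1* and *Plin4* were at -0.78, -0.49 and -1.18. *Mt1* was at -0.15 without mutant replicate 2. *Fkbp5*, a cochaperone of the glucocorticoid receptor, read 14, 14.5 and 15.4 against 10, 8.68 and 12.5 CPM. Of 16 immediate early genes tested, 13 lay above 0 and 2 had a p under 0.05, *Fosb* (0.54) and *Egr3* (1.36), both higher (all genes 2.38%), with a median of 0.23. Without mutant replicate 3 the median was 0.44, and 7 were higher (all genes 3.31%) and 1 lower at that p. With the plexus covariate the median was 0.74, and 11 were higher (all genes 4.36%) and 1 lower. *Fos* read 89.2, 87.1 and 27 CPM in DBA/1J against 93.4, 108 and 55 CPM, lowest in replicate 3 of each group. Its log2 fold change was 0.34 (unadjusted p 0.39) and ran from -0.04 without DBA/1J replicate 3 to 0.58 without mutant replicate 3, and *Fosb* was at 0.82 without DBA/1J replicate 2.

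Clock genes under ROR elements are known targets of the family. Of the 6 genes, *Npas2* was lower, at 2.9, 2.89 and 2.72 CPM in DBA/1J and 1.97, 1.97 and 1.98 CPM in *Rorb* h5/h5, without overlap (-0.53, SE 0.15, unadjusted p 0.00619, edgeR adjusted p 0.759). Of all genes, 3.24% were lower at an unadjusted p under 0.05. *Bmal1* read 32.9, 31.2 and 31.7 against 30.5, 31.5 and 29.5 CPM (-0.06), and *Clock*, *Cry1* and *Nfil3* were at -0.12, -0.23 and -0.06. Without mutant replicate 2 *Clock* and *Cry1* were at -0.03 and -0.11, and *Cry1* was at -0.09 without DBA/1J replicate 3. Without mutant replicate 3 *Cry1*, a repressor of the clock, was at -0.42 (unadjusted p 0.00749, edgeR adjusted p 0.532), and with the plexus covariate at -0.61 (unadjusted p 0.00112, adjusted p 0.216), so that 2 and 3 of the 6 were lower at an unadjusted p under 0.05. None of the 12 clock genes under E boxes had a p under 0.05, against 1 without that library and 3 with the covariate, all lower (all genes 4.04% and 4.80%). Of 7 thyroid hormone genes tested, 2 were lower at that p (all genes 3.24%). One was *Slco1c1* (-0.33), which carries thyroid hormone across the blood-brain barrier and the choroid plexus and was at -0.19 with the plexus covariate.

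Among receptors and channels few genes had a small p, read against 2.38% of all genes higher and 3.24% lower at an unadjusted p under 0.05. Of 24 glutamate receptor genes *Gria1* (0.13) and *Grin2d* (0.29) were higher and *Grin3a* (-0.19) lower at an unadjusted p under 0.05. Of 18 GABA and glycine receptor genes tested, *Gabra2* read 83, 84.9 and 111 CPM in DBA/1J and 66.5, 64.8 and 73.6 CPM in the mutants. It did not overlap and was called by DESeq2 (-0.45, SE 0.10, DESeq2 adjusted p 0.00458, edgeR adjusted p 0.558). Without DBA/1J replicate 3, the highest library, it was at -0.29. *Gabrg3* (0.36) and *Glra1* (0.84) were higher at an unadjusted p under 0.05. *Glra1* read 2.44, 1.81 and 1.07 against 2.74, 4.78 and 1.92 CPM, overlapping groups, and was at 0.41 (p 0.236) without mutant replicate 2 and 1.46 with the plexus covariate. Of 80 potassium channel genes 4 were higher and 1, the plexus gene *Kcnj13*, lower, and without mutant replicate 3 there were 6 and 3 (all genes 3.31% and 4.04%). *Gria1* and *Gabrg3* then had unadjusted p of 0.0536 and 0.0756.

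Transport genes were examined as the broadest family. Of 337 solute carrier and ABC transporter genes 22 (6.53%) were higher and 22 (6.53%) lower at an unadjusted p under 0.05, against 2.38% and 3.24% of all genes, with a median of 0.01. With the plexus covariate 26 (7.72%) were higher and 13 (3.86%) lower, against 4.36% and 4.80% of all genes. Besides *Slc15a2*, *Slc6a11* and *Slc12a2*, DESeq2 called *Slc5a3*, the myo-inositol transporter, which read 80.7, 80.2 and 94.9 CPM in DBA/1J and 65.3, 50.8 and 65.2 CPM in the mutants (-0.50, SE 0.10, DESeq2 adjusted p 0.000641), and *Slc4a2*, *Slc13a4* and *Slco1c1*, which were at -0.50, -0.56 and -0.33 and with the plexus covariate at -0.23, -0.22 and -0.19. Of 42 collagen genes 9 (21.4%) were higher, among them *Col9a2* (0.39), and 4 (9.52%) lower, against the same shares of all genes. Those were *Col4a3*, *Col4a6*, *Col8a1* and *Col8a2*, at -0.81, -0.34, -1.12 and -1.07, and at -0.27, -0.36, -0.09 and -0.18 with the covariate, and *Col8a1* and *Col8a2* were at -0.71 and -0.68 without mutant replicate 3. Cholesterol synthesis (19 genes), polyamine synthesis (8) and mitochondrially encoded genes (15) had no member at an unadjusted p under 0.05, although 2 of cholesterol synthesis were higher at that p without mutant replicate 3 (all genes 3.31%). Of 12 interferon-induced genes *Bst2*, tetherin, was lower (-0.67, unadjusted p 0.0439). It was at -0.42 (p 0.141) without mutant replicate 3 and at -0.17 (p 0.629) with the plexus covariate, when no gene of that list had a p under 0.05.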

How the data were processed

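Libraries were made from poly(A) RNA of snap-frozen tissue. To make the expected counts, the authors trimmed reads with Trim Galore, aligned them to GRCm38 with STAR and let RSEM estimate how many fragments came from each gene. RSEM also gave the TPM values that the authors deposited, which are scaled by effective gene length and by depth. Of the expected counts, 5.003% were not whole, and all were rounded. Symbols were joined to 41403 of 45706 identifiers from a later annotation, and coordinates are those of GRCm38.

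Genotypes were compared 3 against 3 by the quasi-likelihood test of edgeR 4.0.16 (R 4.3.3), after TMM scaling and filterByExpr, with Benjamini-Hochberg adjustment over all genes tested. DESeq2 1.42.0, which the authors used within each tissue, and limma 3.58.1 were alternatives. The labels do not say that the libraries share no litter, and p-values measure the spread between these mice. Differences between regions were tested in 18 libraries with the animal as a block. CPM use TMM-scaled library sizes. The fits were tested on simulated data.

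The genes and lists described were chosen with earlier results of these data known. Genes are named by rule: the ROR family, genes called by edgeR, the 15 of smallest p in each direction, the 10 of smallest DESeq2 p, up to 3 members of smallest p and the defining markers of each of 36 lists, and genes within 0.5 Mb of *Rorb*. A further 4 lists were added after values were seen. Genes named outside the rule are those called by DESeq2, list members past the unadjusted threshold, and those said to be chosen afterwards. Alternatives were DESeq2, its size factors, other filters on low counts, labelled sex, sex read from the RNA, the replicate number or the identifier series as a block, one fit of 3 regions, limma-voom, leaving out sex-chromosome and mitochondrial genes, and leaving out each library. The choroid plexus sum as a covariate, DESeq2 without *Rorb* h5/h5 replicate 3, and hemisections without 1 library were added after seeing the data. No pair of replicates was identical. Some results are not reported here.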

Additional observations from a re-analysis of the deposited data

Results flagged for a closer look

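The genotype effect on *Grin2c*, the GluN2C subunit gene, differed between regions of the same animals by a test of the difference itself. The log2 fold change in cerebellum exceeded that in cortex by 1.09 (SE 0.12, edgeR adjusted p 0.00574) and that in hippocampus by 1.07 (SE 0.12, edgeR adjusted p 0.00802), and DESeq2 with the animal as a term gave 1.10 and 1.08. In cerebellum 2 of the 3 mutant libraries lay above every wild type, and in cortex all 3 lay below. The rule that looks for a single library far from its group needs at least 4 samples and could not be applied to groups of 3.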

How the results depend on the processing

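With 3 mice per group the number of genes called depended on the method. The 2 calls of edgeR became 44 with DESeq2, 66 with DESeq2 without *Rorb* h5/h5 replicate 3, 68 without a filter on low counts, 5 with the choroid plexus covariate, 1 at a minimum of 1 CPM in 3 libraries, with labelled sex, with sex read from the RNA and in one fit of 3 regions, and 0 with the identifier series as a block, where 553 genes had an unadjusted p under 0.05. DESeq2 size factors, limma-voom and leaving out sex-chromosome and mitochondrial genes gave 2. The fit with the identifier series as a block takes its genotype values from the shared series alone. Leaving out each library gave 0 to 8 calls. The cause was not tested. With the replicate number as a block there were 15 calls, but same-numbered libraries correlated at 0.211, -0.0226 and 0.254 in their deviations and not every library correlated best with its own number, so that the numbers do not pair the mice.

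*Rorb* stayed higher throughout and passed the threshold with DESeq2 (0.56), without a filter (0.56), with the replicate block (0.56) and with DESeq2 without *Rorb* h5/h5 replicate 3 (0.56). Leaving out each library it ran from 0.53 to 0.60. The single gene called in the difference between cerebellum and cortex became 64 with DESeq2, 3 without the animal block, 15 without a filter, 0 in a fit of those 2 regions alone, and 0 to 24 leaving out each animal. Against hippocampus DESeq2 gave 33 and leaving out each animal 0 to 2. Among the genes named in the text, leaving aside those that check tissue and sex, 16 reversed direction in at least one setting, most of them near 0. With the choroid plexus covariate these were *Ttr* (1.10), *Sostdc1* (0.23), *Lmx1a* (0.17), *Mfrp* (0.07), *Kcnj13* (0.05), *Calml4* (0.03), *Nmrk1* (0.12) and *Ostf1* (0.05). *Ttr*, *Sostdc1*, *Kcnj13* and *Calml4* are part of the sum used as that covariate, so their values in this fit are not independent of it. With the identifier series as a block the reversed genes were *Calb1* (-0.02), *D030056L22Rik* (-0.01), *Klf9* (0.01) and *Nmrk1* (0.02), with sex read from the RNA *Nfil3* and *Nmrk1* (0.01 each), and with DESeq2 without *Rorb* h5/h5 replicate 3 *Nmrk1* (0.05) and *Ostf1* (0.02). *D030056L22Rik* was at 0.00 with limma-voom, without a filter and with the replicate block, on the other side of 0. Leaving out each library, *Rora* ran from -0.09 to 0.02, *Nfil3* from -0.18 to 0.02, *Fos* from -0.04 to 0.58, *Calb1* from 0.00 to 0.12, *Carnmt1* from -0.13 to 0.05, *D030056L22Rik* from -0.09 to 0.08, *Nmrk1* from -0.10 to 0.05, *Ostf1* from -0.05 to 0.02 and *Trpm6* from -0.19 to 0.04. Of 2180 alternative values of 116 single-gene results, 1996 kept both direction and side of the threshold, 24 lost it, 126 gained it and 34 reversed. Results that missed the threshold in the main edgeR fit could not lose it. All 24 losses fell on *Etnppl*, *Fabp7* and the *Grin2c* differences, the results called in that fit.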

Other observations

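Other genes that DESeq2 called in cerebellum, named after their values were seen, hold *Gmnc*, *Fhad1* and *Tmem237*, which belong to cilia, and were at -1.58, -1.33 and -0.44. With the choroid plexus covariate they were at -0.66, -0.60 and -0.27. *Kirrel2*, an adhesion molecule of the immunoglobulin family, was at -0.82 and moved the other way with that covariate, to -1.21. *Ucp2*, a mitochondrial carrier, was at -0.51 and at -0.29 with the covariate, and *Ccnd2*, the cyclin D2 gene, at -0.58 and -0.29.

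By chromosome, the share of tested genes with an unadjusted p under 0.05 ran from 3.45% on chromosome 17 to 8.05% on chromosome 6, and it was 4.67% on chromosome 19, which carries *Rorb*.

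The limits are those of 3 mice per group of mixed sex, 1 animal whose RNA goes against its labelled sex, unequal amounts of choroid plexus and blood between libraries, and gene-level counts that separate neither the *Rorb* transcripts nor near-identical gene copies. The counts also do not tell how much protein either transcript gives.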
